A study of Vitis vinifera with 2 samples.

Results

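Intronless genes are nuclear genes of grape (Vitis vinifera) whose transcript models all consist of a single exon. They were taken from the genes with a numbered LOC name: every transcript model of the name had 1 exon, and the plastid and mitochondrial sequences were left out. This gave 4203 of 28823 LOC genes and of 30485 genes in all. Of the 4203, 1492 were measured, meaning that the FPKM, a fragment count divided by transcript length and by library size, reached 1 in at least 1 library. They were compared with the 24620 LOC genes that have a transcript model of 2 or more exons, of which 13237 were measured.

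The study has 1 RNA library of grape wound tissue treated with 10 µL of sterile water, the control, and 1 of wound tissue treated with an equal volume of suspended cells of the yeast Yarrowia lipolytica. Both were kept at 20 °C and sampled 3 days after treatment. The sources used here give neither the grape cultivar nor the number of berries or wounds behind a library, and the control carries the yeast's name in its strain label too. With n = 1 per group no test was made, no difference has a replicate check, and intervals cover counting error only. The stated purpose was to find genes of grape resistance whose expression differs with the yeast.

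In most eukaryotic genes, introns are cut out of the transcript before it leaves the nucleus. A gene without introns skips this step. In plants, such genes are known from several families, among them many pentatricopeptide repeat proteins, AP2/ERF transcription factors, SAUR proteins, small heat shock proteins and CIPK protein kinases. Genes whose transcripts respond quickly to stress have been described as poor in introns in plants and in animals. A read from a single exon crosses no splice junction, so it carries no splice signal to show its strand.

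In the treated library, 175 of the 1492 measured intronless genes (11.7%) stood at least 2-fold higher than in the control, and 96 (6.43%) at least 2-fold lower. Ratios are log2((treated FPKM + 1)/(control FPKM + 1)), a scale that understates the difference of low genes. Over all 16040 measured genes, 6.26% were higher and 3.66% lower. These also hold genes with a symbol, assembled loci without a gene name, and plastid and mitochondrial genes. Over the 14729 measured LOC genes alone, 5.83% were higher and 3.44% lower. Among genes with introns the shares were 5.17% higher (684 genes) and 3.10% lower (410 genes). The intronless share was therefore 2.27 times as large on the higher side and 2.08 times as large on the lower side. At 4-fold, 50 intronless genes were higher (3.35%, beside 1.95% of all genes and 1.73% of genes with introns) and 6 lower (0.402%, beside 0.206% and 0.151%). Differences in RNA per cell and in the number of cells of a type cannot be told apart in such bulk libraries.

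The intronless genes differed in spread more than in their centre. Their median log2 ratio was -0.21, with quartiles at -0.54 and 0.34, while genes with introns had a median of -0.29 with quartiles at -0.51 and -0.02. The standard deviation of the ratio over genes was 0.86 for intronless genes and 0.64 for genes with introns. The median over all measured genes was -0.28. After shifting the ratios so that this median is 0, the intronless median was 0.06 and that of genes with introns -0.01. The same shift moved the split of intronless genes past 2-fold from 175 higher and 96 lower (64.6% higher) to 239 higher and 41 lower (85.4% higher). In genes with introns it moved the split from 62.5% to 87.5% higher.

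**Figure D1:**
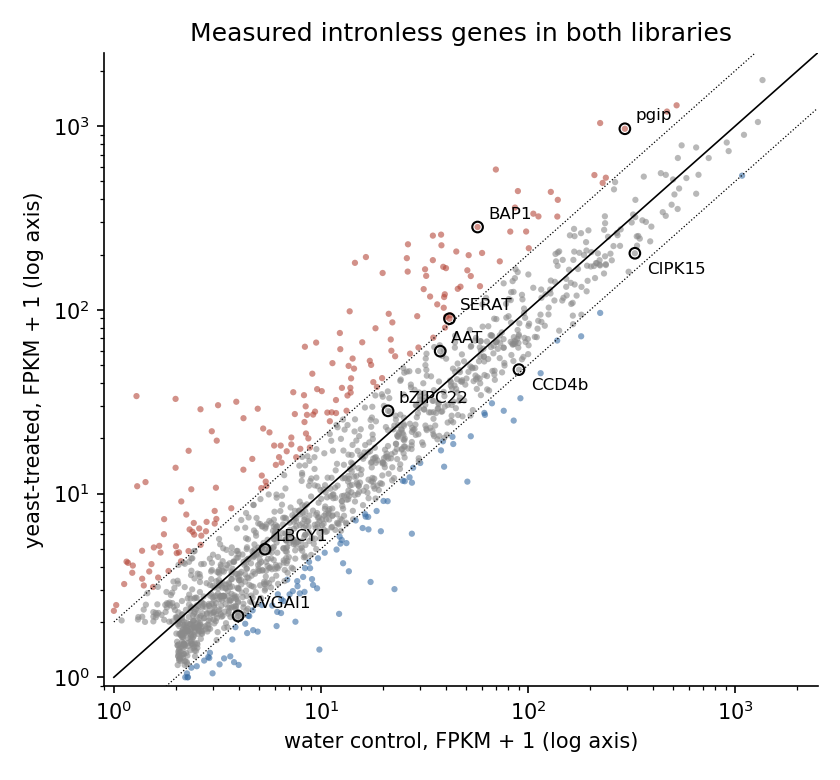
Each point is 1 of 1492 measured intronless genes, with its FPKM + 1 in the water control on the x axis and in the yeast-treated library on the y axis, both log axes; red points are at least 2-fold higher, blue points at least 2-fold lower, and dotted lines mark 2-fold. Circled genes carry a synonym in the RefSeq table, and the red points (175) outnumber the blue (96).

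The share of genes past 2-fold fell from class to class as the number of exons rose. Of the 1855 genes with 2 exons in their largest model, 9.22% were higher and 5.18% lower. With 3 to 4 exons the shares were 6.24% and 3.75%, with 5 to 9 exons 4.82% and 2.62%, and with 10 or more exons 2.48% and 2.05%. Over all levels together, the intronless genes thus stood at 1 end of a graded series rather than apart from all other genes. The median absolute log2 ratio followed the same order, from 0.48 without introns over 0.43, 0.41 and 0.38 to 0.35 with 10 or more exons.

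**Figure D2:**
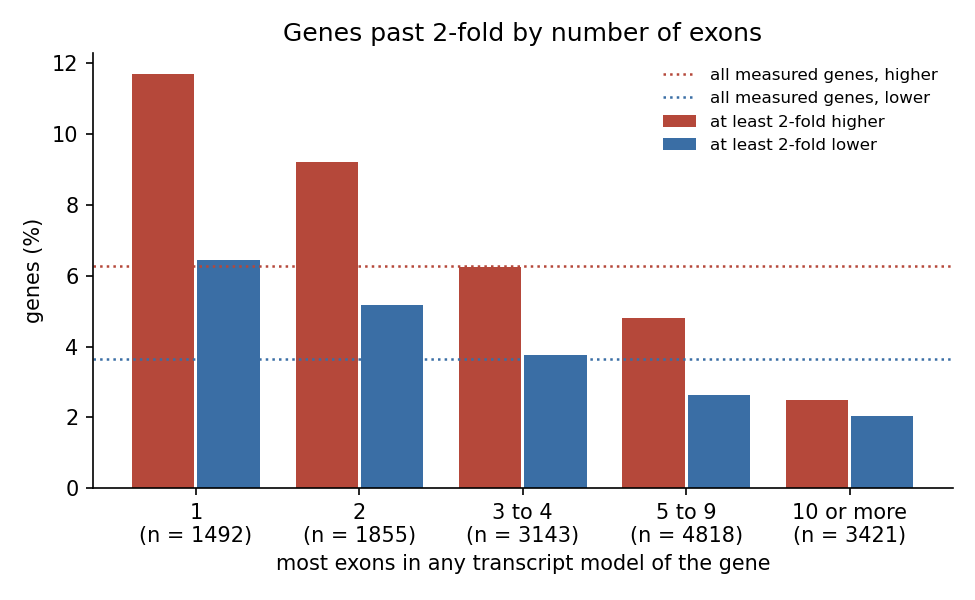
Bars give the percentage of measured LOC genes at least 2-fold higher (red) or lower (blue) in the treated library, by the largest number of exons in any transcript model; dotted lines are the shares over all measured genes, 6.26% and 3.66%. The share falls from 11.7% to 2.48% on the higher side and from 6.43% to 2.05% on the lower side.

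Exon number goes together with length and level, so these were set beside the result. Intronless genes had shorter transcripts, with a median of 1227 bases (quartiles 837 and 1797), against 1649 bases (1140 and 2356) in genes with introns. Their levels were more spread out: the median in control and treated library was 7.74 and 6.93 FPKM, against 10.8 and 8.99 FPKM in genes with introns, but 12.6% of measured intronless genes and 9.01% of genes with introns reached 100 FPKM in at least 1 library. A smaller part of them was measured at all, 35.5% against 53.8%. Among LOC genes the highest control value was 1356 FPKM without introns and 16538 FPKM with introns. Single-exon genes that carry a symbol are outside the class, and GRIP28, at 10216 and 7174 FPKM, is far above it.

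Within classes of level the difference was present at each step, and on the higher side it was widest in well-expressed genes. Of 448 intronless genes with a mean FPKM under 3, 5.58% were higher, beside 3.47% of genes with introns. At a mean FPKM of 10 to 30, 46 of 282 intronless genes were higher (16.3%), beside 4.80% of genes with introns, and 20 were lower (7.09%), beside 1.98%. At 30 to 100 the higher shares were 17.2% and 7.03%. Above 100, 34 of 162 intronless genes were higher (21.0%), beside 11.2%, and 4 were lower (2.47%), beside 0.764%. At low levels the intronless genes were not at the end of the grading by exon number on the higher side. In genes with a mean FPKM under 3, 6.12% of genes with 2 exons were higher and 5.58% of intronless genes. At 3 to 10 the higher shares were 11.0% and 8.03%. The lower shares were 4.02% and 5.80% under 3, and 9.11% and 9.70% at 3 to 10, larger in intronless genes.

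Within classes of transcript length the intronless share was also the larger. At 1000 to 2000 bases, 89 of 667 intronless genes were higher (13.3%), beside 5.95% of genes with introns. Over 2000 bases the higher shares were 9.59% and 3.77%, and from 500 to 1000 bases 10.2% and 4.70%. Under 500 bases, with 56 intronless genes, the higher shares were 16.1% and 13.6%. When level and length were crossed, 14 joint classes held at least 20 genes of each kind. The higher share was larger in intronless genes in 14 of these 14 and the lower share in 12. Weighting the genes with introns to the level and length classes of the intronless genes gave 5.34% higher and 3.59% lower, still under the intronless 11.7% and 6.43%.

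**Figure D3:**
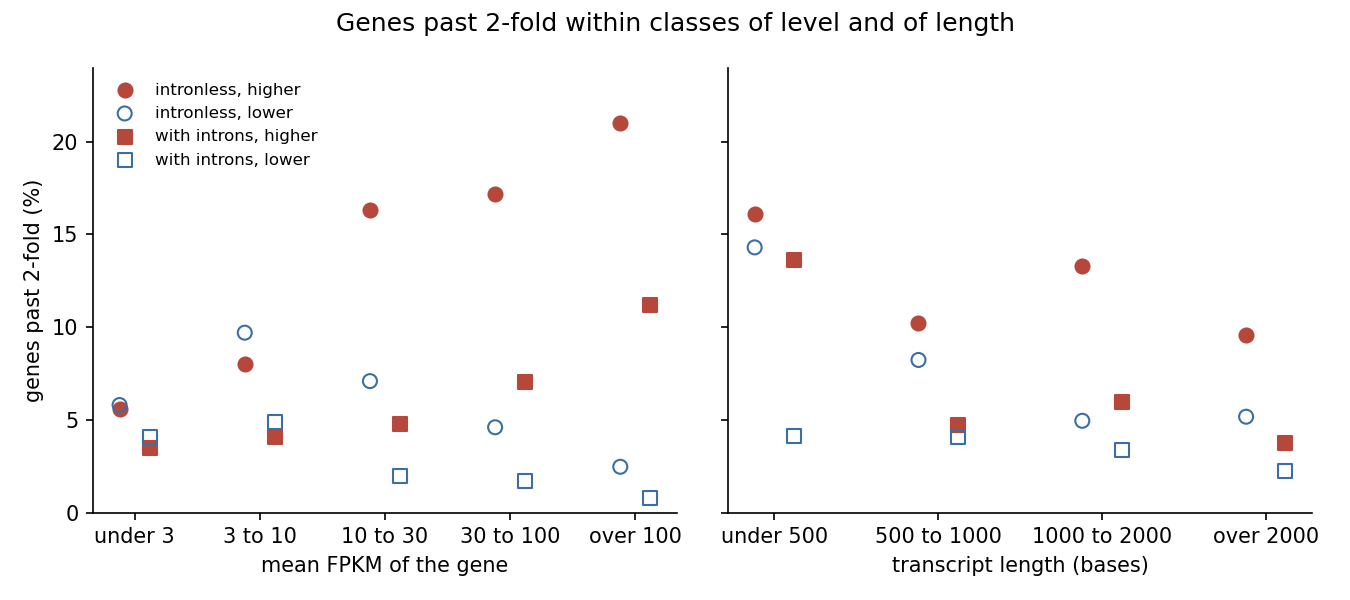
The y axis gives the percentage of measured genes past 2-fold, by mean FPKM of the gene (left) and by transcript length in bases (right); circles are intronless genes, squares genes with introns, filled red is higher and open blue is lower in the treated library. In the classes above 10 FPKM the filled circles lie between 16.3% and 21.0% and the filled squares between 4.80% and 11.2%.

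Counting intervals were set beside genes already picked for a ratio past 2-fold, which favours intervals that exclude 1. The same tally was not made for genes with introns, so it shows nothing particular to intronless genes. Of the 175 higher intronless genes, 174 had a 95% counting interval of the fold that excluded 1, and in 157 it lay wholly above 2. Their median level was 8.59 FPKM (control) and 32.9 FPKM (treated), and their median fold was 3.53. Of the 96 lower genes, 93 had an interval that excluded 1 and 68 one wholly below 0.5. Their medians were 8.63 and 2.47 FPKM. The median measured intronless gene had 205 fragment equivalents (control) and 202 (treated). Part of the counts follows from the filter, since 157 intronless genes passed it in the control only and 63 in the treated library only, with 24 and 26 of them past 2-fold. Of the 1272 that passed in both libraries, 221 were past 2-fold.

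The filter itself cut through a continuum. The genes just inside it were LOC100253546, at 0.414 and 1.0 FPKM (control, then treated), and LOC100254634, at 1.0 and 0.729 FPKM. Just outside it lay LOC100264907, at 0.996 and 0.366 FPKM, and LOC100256232, at 0.991 and 0.832 FPKM. Of the 2711 intronless genes that were not measured, 1249 were listed at 0 in both libraries.

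The label of the class was set against a newer RefSeq gene table of grape (assembly ASM3070453v1), in which 1374 of the 1492 measured intronless genes have an entry. There, 1356 are protein-coding and 18 are pseudogenes, and the other 118 have no entry. In 1195 of the 1374 the span of the gene in that table was at most 1.2 times the transcript length in the files. This limits the length of any intron but does not exclude a short one. Of these 1195, 12.4% were higher. Of the 179 with a longer span, whose single exon is thus less sure, 8.94% were higher. A single transcript model was present for 1455 of the 1492, and the remaining 37 had 2.

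Intronless genes that overlap another gene model, 182 of 1492, need care, because fragments can be split between the models in an unknown way. For 109 of them a partner lies on the opposite strand, and the sources used here do not say whether strand was used in counting. Of the 182, 14.3% were higher, and of the 1310 with no overlap, 11.4%. Among genes with introns the same shares were 11.6% and 4.11%. Without overlapping genes the intronless share was thus 2.77 times as large on the higher side. Of all 1492, 84 share an assembled locus with another named gene, and 17 of these 84 were higher (20.2%). Of the 1408 that do not share a locus, 158 were higher (11.2%).

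Only 9 of the measured intronless genes carry a synonym that shows what they may encode, and 3 of the 9 were higher and 0 lower. Over all measured intronless genes the shares were 11.7% and 6.43%, and 9 genes are too few to set apart from these. All 9 lie on numbered chromosomes, and their coordinates are those of the files, for which no genome build is named. The polygalacturonase inhibitor LOC100232865 (pgip; chromosome 8, 21152560 to 21153561, minus strand), whose protein blocks pectin-degrading enzymes of fungi, had 293 FPKM (control) and 966 FPKM (treated). That is 3.30-fold higher (95% counting interval 3.21 to 3.40) and, with the yeast, the highest level of the 9. LOC100248930 (BAP1; chromosome 15, 16195833 to 16196614, minus strand) had 56.1 and 281 FPKM, 5.02-fold higher (4.66 to 5.40). In Arabidopsis, BAP1 is a small membrane-associated protein that restrains cell death.

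LOC100246391 (SERAT; chromosome 19, 8107681 to 8109163, minus strand) had 40.8 and 88.5 FPKM, 2.17-fold higher (2.03 to 2.33). SERAT is the usual abbreviation for serine acetyltransferase, which makes the precursor of cysteine. LOC100233116, with the synonym AAT, had 36.7 and 58.6 FPKM, 1.60-fold (1.45 to 1.76). Its log2 ratio was 0.66, but 1.07 in the authors' deposited gene table, and its span overlaps another model, so whether it passes 2-fold is uncertain. LOC100257331 (bZIPC22), a bZIP transcription factor by its synonym, had 20.1 and 27.2 FPKM, 1.35-fold (1.2 to 1.53). Its span in the files, 3987008 to 3990330, is longer than its transcript of 1151 bases, so its single exon is less sure.

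The other 4 synonym-bearing genes had the lower value in the treated library. None passed 2-fold with a pseudocount of 1 on the FPKM summed per gene. LOC100259329 (CIPK15; chromosome 4, 5291806 to 5293665, minus strand), a kinase that acts with calcium sensors of the CBL family, had 327 and 202 FPKM, 0.618 times the control (0.601 to 0.636). LOC100252859 (CCD4b), a carotenoid cleavage dioxygenase, had 89.4 and 46.3 FPKM, 0.517 times (0.490 to 0.547), just short of 2-fold. LOC100232937 (VVGAI1; chromosome 1, 4894937 to 4897452, minus strand) encodes a DELLA protein, a repressor of gibberellin responses. It had 2.98 and 1.16 FPKM, 0.388 times (0.283 to 0.526), which is past 2-fold without the pseudocount and at a log2 ratio of -0.88 with it. In the authors' deposited gene table its log2 ratio was -1.05, so whether it passes 2-fold is uncertain. LOC100246737 (LBCY1), a lycopene cyclase by its synonym, had 4.37 and 3.98 FPKM, and its interval (0.707 to 1.17) includes 1.

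The remaining intronless genes have no product name in the files or in the RefSeq table, so the largest differences can be given by identifier and position only. Of 739 intronless genes that reached 10 FPKM in at least 1 library, 130 were higher (17.6%) and 45 lower (6.09%). Of 8330 genes of any kind at that level, 8.33% were higher and 2.79% lower, and of 7243 genes with introns 6.92% and 2.33%. The 12 highest ratios lay between 2.91 and 4.72 on the log2 scale and belonged to genes with control levels of 0.286 to 68.9 FPKM and treated levels of 10.5 to 579 FPKM. They are spread over 8 chromosomes, and 9 of the 12 overlap another gene model, against 12.2% of all measured intronless genes. The highest was LOC100244985 (chromosome 3, 18861580 to 18863039, plus strand), at 0.286 and 32.9 FPKM, 115-fold higher. Its control value rests on 8.22 fragment equivalents, so its counting interval is wide, from 58.2 to 267. LOC100267294, on the same chromosome at 18804471 to 18806234, had 0.986 and 31.8 FPKM, 32.2-fold higher (22.9 to 46.7).

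The 8 lowest ratios among these 739 genes lay between -2.91 and -1.64, and 0 of the 8 overlap another model. Their levels ran from 11.2 to 84.3 FPKM with water and from 1.21 to 24 FPKM with the yeast. The lowest was LOC100264841 (chromosome 14, 1522846 to 1523322, minus strand), at 21.7 and 2.02 FPKM, 0.0932 times the control (0.0557 to 0.148). LOC100855260 (chromosome 13, 23127301 to 23128371, minus strand) had 11.2 and 1.21 FPKM, 0.108 times (0.0697 to 0.161). All 8 stood at least 2-fold lower after the shift to a median of 0 as well, with ratios up to -1.37.

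The most abundant intronless gene with a LOC number was LOC100250058 (chromosome 6, 1232941 to 1233723, plus strand), at 1356 and 1780 FPKM, 1.31-fold (1.29 to 1.34). Of the 6 most abundant, 2 were past 2-fold, both higher, with folds of 2.56 and 2.49. The others lay between 0.812 and 1.31 times the control. The intronless LOC genes together held 7.88% (control) and 9.11% (treated) of the summed FPKM, a sum 1.13 times as large, while the sum over LOC genes with introns was 0.960 times the control. With the measured single-exon genes that carry a symbol added, the intronless sum was 1.06 times the control.

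Some of the higher intronless genes lay near each other. Of the 164 on numbered chromosomes, 49 (29.9%) had another higher intronless gene within 100 kb. Of 88 lower ones, 9 (10.2%) had a lower neighbour at that distance. Higher genes are more numerous, which alone makes neighbours more frequent, so these shares are descriptions. The same share was not taken for genes with introns or for intronless genes of any ratio. It therefore shows nothing particular to higher intronless genes. There were 6 groups of 3 or more higher genes, with 25 genes in all, and 1 group of 3 lower genes. These groups and the genes named in them were picked out after their values were seen. Without the 25 genes, 10.2% of the measured intronless genes were higher. Of the 25, 17 were past 2-fold with a pseudocount of 5 and 23 in the authors' deposited gene table. In that table genes of 1 assembled locus share a value, such as LOC100247985 and LOC100264114 at a log2 ratio of 2.37. The 23 are therefore not separate checks of single genes. Neighbouring gene models can be near-identical copies that share fragments, which was not checked, so a group is not a set of separate measurements.

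The group on chromosome 10 (528816 to 732916) was the largest. It held 11 measured intronless genes, of which 9 were higher and 0 lower. LOC100267596 went the other way, at 1.53 and 0.446 FPKM, a fold of 0.291 (0.0957 to 0.752), and is within 2-fold only with the pseudocount. Summed over the 11, the level was 19.0 FPKM with water and 116 FPKM with the yeast, 6.10 times as much. LOC100264003 made up most of this, at 8.48 and 65.3 FPKM (fold interval 6.5 to 9.18). Of 10 measured genes with introns between them, 6 were higher, beside 5.17% of all measured genes with introns. Whether they share fragments with the intronless genes was not checked. Of the 9, 5 overlap other models, and 4 belong to an assembled locus that holds 10 named genes, so the split of fragments among them is uncertain. With a pseudocount of 5, LOC100242685, LOC100247985, LOC100853684, LOC100853959 and LOC104880472 were within 2-fold, at log2 ratios of 0.41 to 0.67. In the control, LOC104880472 rests on 1.5 fragment equivalents and LOC100247985 on 5.97. Chromosome 10 had the largest share of higher intronless genes of all chromosomes, 27.5%. Without the 9 genes of this group it was 11.9% (5 of 42).

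On chromosome 6 (1076618 to 1143079) 7 intronless genes were measured, with no measured gene with introns between them. LOC100255325 had 30.8 and 165 FPKM, LOC100263839 at 33.7 and 185 FPKM, LOC100241568 at 18.9 and 158 FPKM, and LOC100253541 at 3.23 and 24.7 FPKM. These 4 were 5.36-, 5.50-, 8.36- and 7.66-fold higher. LOC100263839, LOC100241568 and LOC100253541 overlap another model, so the split of their fragments is uncertain. LOC100241568 also belongs to an assembled locus that holds 3 named genes. The same stretch held LOC100265620, which went the other way, at 3.95 and 0.772 FPKM, 0.195 times the control (0.0987 to 0.358). The remaining LOC100243308 (3.37 and 2.90 FPKM) and LOC100248431 (5.11 and 8.49 FPKM) were within 2-fold, so the direction was not shared along the whole stretch.

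The groups on chromosomes 3 and 15 had the largest ratios. On chromosome 3 (18804471 to 18896919) the 3 genes held 2.89 and 92.4 FPKM together, 32.0 times the control. They include the pair with the highest ratios named above and LOC100250119, a pseudogene in the RefSeq table, at 1.62 and 27.8 FPKM. All 3 overlap other models. On chromosome 15 (12223557 to 12248421) the 3 genes held 27.5 and 222 FPKM, 8.05 times the control, and none overlaps another model. LOC100259767 stood there at 25 and 190 FPKM, 7.61-fold higher (6.95 to 8.34), and LOC100253112 at 2.19 and 29.3 FPKM. LOC100853485, at 0.370 and 2.44 FPKM, rests on 4.50 fragment equivalents in the control. Its log2 ratio of 1.33 was 0.58 in the authors' deposited gene table and 0.47 with a pseudocount of 5, which leaves 2 higher genes in that group.

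The groups on chromosomes 5 and 12 were smaller in ratio. On chromosome 12 (5182888 to 5253564) 3 of 4 measured intronless genes were higher. LOC100255025 had 31.2 and 152 FPKM and LOC100260129 had 38.6 and 120 FPKM, while LOC100265330 in the same stretch was within 2-fold, at 48.1 and 51.4 FPKM. The third higher gene, LOC100253285, was at a log2 ratio of 0.92 with a pseudocount of 5, within 2-fold. LOC100253285 and LOC100265330 overlap other models, and each had a log2 ratio of 1.05 in the authors' deposited gene table. The split of fragments between models is uncertain there. On chromosome 5 (7542707 to 7570173) LOC100261423 had 12.9 and 36.6 FPKM, 2.85-fold higher (2.47 to 3.29). The other genes of that group were low in the control, with LOC100251140 resting on 2.00 fragment equivalents there. With a pseudocount of 5, LOC100251140 was within 2-fold, at a log2 ratio of 0.68. On the lower side, the group on chromosome 1 held LOC100244321 at 20.0 and 8.09 FPKM, LOC100256255 at 15.3 and 6.74 FPKM and the pseudogene LOC100249476 at 8.58 and 2.05 FPKM. After the shift to a median of 0 only LOC100249476 was still 2-fold lower, at -1.38, with the others at -0.93 and -0.80, so the group of 3 was lost.

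**Figure D4:**
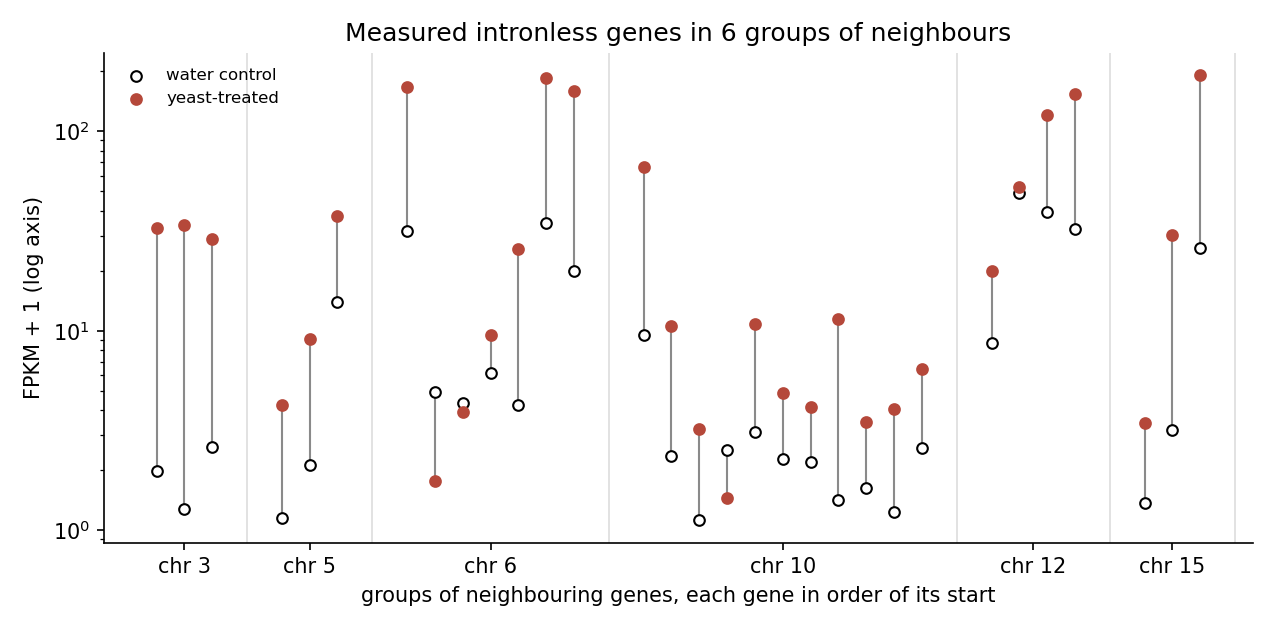
Each vertical line is 1 measured intronless gene in 1 of the 6 groups of neighbouring higher genes, placed in the order of gene starts, with FPKM + 1 on a log axis; open circles are the water control and red circles the yeast-treated library. Most lines rise, and the exceptions include 1 gene on chromosome 6 that falls from 3.95 to 0.772 FPKM.

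By chromosome, the order of the classes was nearly uniform. In 18 of 19 chromosomes the share of higher genes was larger among intronless genes than among genes with introns. The exception was chromosome 16, with 4 of 53 intronless genes higher (7.55%) and 11.2% of genes with introns. This chromosome carries the stilbene synthases, and their part in the exception was not tested. The intronless share ran from 5.19% on chromosome 4 to 27.5% on chromosome 10. On chromosome 9, 7 of 46 intronless genes were higher and 0 lower.

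In fragment equivalents, the depth was 19010746 with water and 20540965 with the yeast. Genes of ripening berries were abundant in both, with GRIP4 at 9967 and 8709 FPKM, GRIP22 at 794 and 440 FPKM, the single-exon TL3 at 5988 and 5931 FPKM and CHI4D at 6227 and 5468 FPKM. The photosystem gene PSBP1, typical of green tissue, had 1.07 and 0.988 FPKM. The make-up of the tissue was not tested further.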

How the data were processed

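Messenger RNA levels were read from 2 libraries, 1 per group, named by the sample titles. The submitters' processing notes name HISAT2 and HTSeq 0.6.1 without their roles. The genome build and annotation are not given in the sources used here. Per the file headers, the authors deposited for each library a table of 53908 transcript models with exon number, length, FPKM, and coverage (a per-base signal). The authors' deposited gene table was treated as a score: its levels cannot be compared between genes, and only its ratio was used, as an alternative.

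FPKM was summed per gene name. Length is that of the transcript with the most FPKM. Fragment equivalents are coverage times length divided by 300 bases, since 25% and 24.2% of transcripts under 1000 aligned bases lay within 1 base of a multiple of 150 (1.33% if evenly spread). A gene of 1 kb with 3 fragments has 0.158 and 0.146 FPKM. Fold intervals are exact binomial (Clopper-Pearson) 95% intervals on rounded fragment equivalents, carried to the FPKM ratio (Python 3.11.15, scipy 1.17.1). Classes were compared by medians and counts.

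The members and lists were chosen with earlier results of these data known. Named genes were the 12 highest and 8 lowest ratios among genes reaching 10 FPKM, the 6 with the highest mean FPKM and genes with a synonym, with at most 2 unnamed identifiers in each direction. Identifiers at the filter's edge and in groups of neighbours fall outside this rule and were chosen after their values were seen. Family lists and promoter motifs had been planned, but no protein or promoter sequence was used here. Chromosome numbers come from the RefSeq gene table.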

Additional observations from a re-analysis of the deposited data

How the results depend on the processing

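No paired analysis was possible because there is 1 library in each group, which also leaves no replicate to omit. The higher share was larger in intronless genes than in genes with introns under each of 11 other settings, by 1.5 to 2.77 times, and the lower share by 1.32 to 2.73 times. The class with the higher median level was not stable: intronless genes stood at 7.90 and genes with introns at 10.1 FPKM, but at 33.0 and 25.7 for genes of at least 10 FPKM, and at 0.163 and 1.29 with no filter.

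The shares themselves moved with the settings, given for intronless genes and then genes with introns. With no filter, 4.16% and 2.78% were higher and 2.28% and 1.67% lower, with median log2 ratios of 0.00 and -0.06, because more genes enter the denominator. With a pseudocount of 5, 7.71% and 3.38% were higher and 1.61% and 0.604% lower, and the median of genes with introns was -0.19. With a pseudocount of 0.1, 13.5% and 8.55% were lower. After rescaling to a median ratio of 0, 2.75% and 1.0% were lower, and the medians were 0.06, a change of sign, and -0.01. Of 85 values over all settings tried, 64 moved by under 0.1 (log2) or 1.5 times. The restriction to genes with a matching RefSeq span, the removal of the 6 groups and the weighting by level and length were chosen after seeing the data. The median measured gene had 205 fragment equivalents in the control without introns and 376 with introns, and the part of depth in the comparison was not tested.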

Other observations

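Intronless nuclear genes that carry a symbol instead of a LOC number, without microRNA and tRNA genes, were not part of the comparison. Of 25 measured, 3 were higher and 0 lower, with a median log2 ratio of -0.01. Over all measured genes 6.26% were higher and 3.66% lower, and over intronless LOC genes 11.7% and 6.43%. With so few genes these counts set nothing apart. The protein kinase CIPK02 stood at 87.2 and 214 FPKM in the control and treated library, 2.46-fold higher (2.33 to 2.59), while CIPK10 stood at 590 and 615 FPKM and CIPK20 at 119 and 86.7 FPKM. The cold-response factor CBF3 stood at 0.473 and 2.35 FPKM, on 8.49 and 45.2 fragment equivalents, and BIG8.1 at 0.429 and 4.42 FPKM. Both were within 2-fold with a pseudocount of 5, at log2 ratios of 0.42 and 0.79. The jasmonate-response factor MYC2 stood at 19.4 and 14.2 FPKM. NCED2, an enzyme of abscisic acid synthesis, stood at 1.67 and 3.26 FPKM, and the copper transporter CTR8 at 123 and 186 FPKM.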
